A study of Mus musculus with 34 samples.

Results

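The effect of deleting Hdac4 on muscle that has lost its nerve was examined in 16 of the 34 gastrocnemius libraries of the series. The 16 libraries are 7 denervated legs of wild-type mice (WT_VEH_DEN) and 9 denervated legs of HDAC4 inducible knockout mice (iRKO_VEH_DEN), selected by the genotype, agent and leg that the labels state. All were female mice, 6 months old at surgery per the series' design text, when the left sciatic nerve was cut, and all received vehicle by gavage for 2 weeks. In the knockout, Cre-ERT2 expressed from the ROSA26 locus removes a floxed exon 5 of Hdac4 in the whole body, not in muscle alone. Tamoxifen was injected at 4 months of age for 7 days at 40 mg/kg, and the degree of knockout was measured in tail RNA, per the labels. The labels give 1 protocol for all mice and say neither whether knockout mice had 1 or both alleles floxed nor whether the wild-type mice carried the Cre or received tamoxifen. The other libraries, 8 control legs of vehicle-treated wild-type mice (WT_VEH_CON) and 10 denervated legs of wild-type mice given NVS-HD1 at 10 mg/kg (WT_NVS_DEN), serve only as levels to set beside the knockout. Control legs of knockout mice were not analysed here, so a change with the knockout cannot be told apart from a difference between the genotypes in innervated muscle.

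HDAC4 is a class IIa histone deacetylase, a family of proteins that have little deacetylase activity of their own and act mainly as signal-dependent repressors bound to transcription factors, of which the MEF2 factors of muscle are the best known. In innervated muscle, activity keeps HDAC4 low and partly out of the nucleus. After the nerve is cut, HDAC4 accumulates in the nuclei and represses genes such as Dach2, which relieves the repression of myogenin, a factor that drives acetylcholine receptor subunits and the ubiquitin ligases of muscle atrophy.

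The deposited table cannot be read by gene. Its symbols do not belong to its values, as the rows labelled Acta1 and Ttn, the skeletal actin and titin of the sarcomere, held 0 TPM throughout. The row with the symbol Hdac4 ranged from 14.8 to 19.6 TPM in WT_VEH_DEN and from 14.3 to 18.5 TPM in iRKO_VEH_DEN (exact two-sided permutation p = 0.862), which cannot serve as a check of the deletion. Of 18 symbols of skeletal muscle genes, 13 were on rows whose mean reached 1 TPM (72.2%, against 52.9% of all 23737 rows), but the highest of these means was 104.7 TPM, against 51113 TPM for the most abundant row. For 16 symbols of the denervation response the count was 10, and for 11 symbols of endothelial, immune, stromal, fat, Schwann and satellite cells it was 7. Rows are therefore identified here by their position in the table, counted from 1 below the header, and by their rank in mean TPM over the 34 libraries. TPM is a measure of transcript abundance that corrects for transcript length and sums to the same total in every library. No row is given a gene name, the tissue and its other cell types cannot be checked by markers, and no sequence can be shown.

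Denervated muscle of knockout and wild-type mice differed in 5398 of 13108 rows tested (41.2%), with 2001 rows higher (15.3%) and 3397 lower (25.9%) in the knockout. In whole muscle, fewer cells of a type and less RNA per cell cannot be told apart. A row was tested if it reached 1 TPM in at least 7 of the 34 libraries, and changed, rose and fell refer to an adjusted p under 0.05 in a limma fit of log2(TPM + 1). Most changes of TPM + 1 were small. Of the rows that changed, 3731 (69.1%) differed by less than 1.5-fold, and the median size was 1.35-fold. At least 2-fold changes were 243 rises (1.85% of rows tested) and 311 falls (2.37%), at least 4-fold 38 and 45, and at least 8-fold 7 and 11. Over all rows tested the log2 fold ran from -0.73 at the 5th percentile to 0.60 at the 95th.

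**Figure D1:**
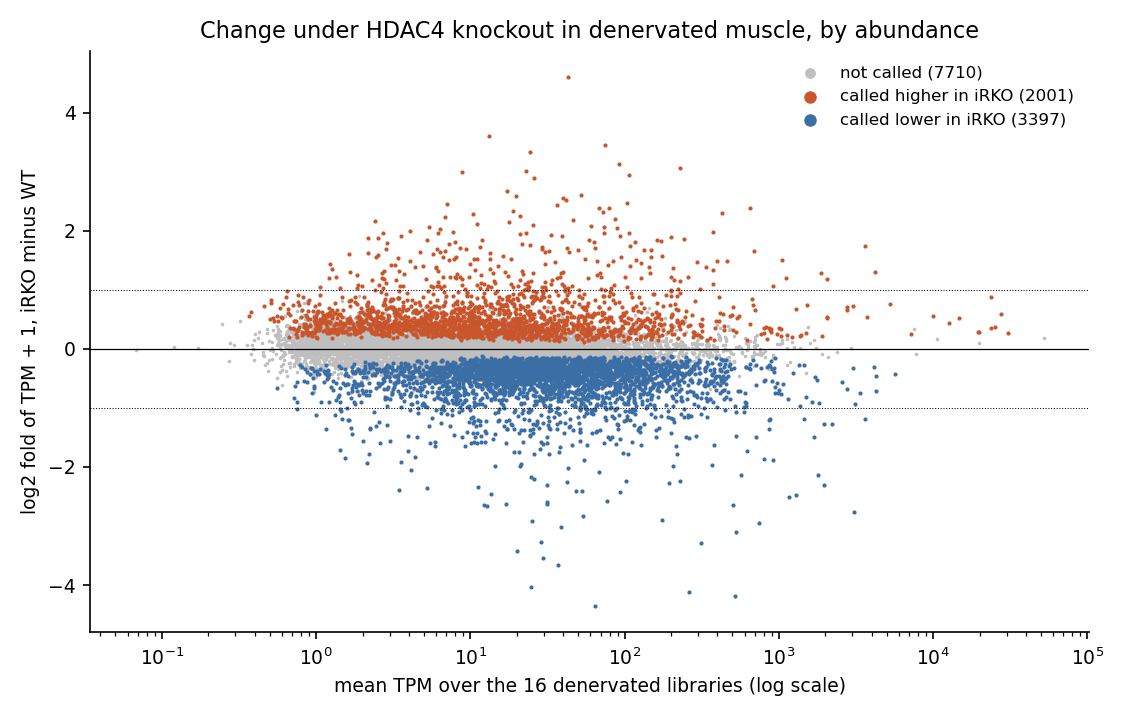
Each point is 1 of the 13108 rows tested, placed by its mean TPM over the 16 denervated libraries (log scale) and by its log2 fold, iRKO_VEH_DEN minus WT_VEH_DEN. Orange points are the 2001 rows called higher, blue points the 3397 called lower and grey points the 7710 not called, and the dotted lines mark 2-fold.

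The precision of the fit bounded many of the rows that were not called. Of these 7710 rows, 6106 (79.2%) had a 95% interval within 1.5-fold of TPM + 1 in either direction, without adjustment for the number of rows. In 205 of them the interval still reached 2-fold. The median SE of a log2 fold was 0.12. In rows of low TPM an interval for TPM + 1 leaves room for a larger fold of TPM itself.

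Library by library, 1633 rows (12.5% of those tested) did not overlap between the groups. In 532 rows (4.06%) every iRKO_VEH_DEN library lay above every WT_VEH_DEN library, and in 1101 (8.4%) every one lay below. Among the rows that changed at least 2-fold, 187 of 243 rises (77.0%) and 224 of 311 falls (72.0%) did not overlap. These rows were picked for a large difference between the same libraries, so their higher shares follow in part from the choice. The rises of this size started from low levels, with a median of 8.19 TPM in WT_VEH_DEN and 30.1 TPM in iRKO_VEH_DEN. The falls started from a median of 54.4 TPM and reached 18.7 TPM.

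The knockout cannot be told apart from a number that stands in the library titles and is not explained in the labels. All WT_VEH_DEN libraries carry number 28 or 29 and all iRKO_VEH_DEN libraries number 25, 26 or 27. When the fit of all 34 libraries also took this number into account, 161 rows were called and the median SE was 0.29. That fit can separate the number from the knockout only through 1 NVS-HD1 library of number 28, as the other NVS-HD1 libraries carry 26 or 27. No control leg shares a number with a knockout library. What that fit calls therefore hangs on 1 library. Inside the groups the number was compared directly. Between 3 libraries of number 29 and 4 of number 28 in WT_VEH_DEN, limma called 0 rows, and 520 (3.97%) had an unadjusted p under 0.05. Between 4 libraries of numbers 26 and 27 and 5 of number 25 in iRKO_VEH_DEN it also called 0 rows, with 283 (2.16%) at an unadjusted p under 0.05. These comparisons hold few libraries and do not cover the step from 25 to 27 up to 28 and 29.

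The 10 largest rises by log2 fold lay between 2.89 and 4.60. These rows rose 8.02-fold to 35.0-fold by mean TPM, from means of 0.806 to 46.1 TPM in WT_VEH_DEN to means of 14.95 to 370.2 TPM in iRKO_VEH_DEN. In 9 of the 10 rows no iRKO_VEH_DEN library overlapped the WT_VEH_DEN libraries. The largest rise was in table row 1642, rank 2750 by mean TPM. Its WT_VEH_DEN libraries ran from 0.448 to 7.55 TPM with a median of 1.56, and its iRKO_VEH_DEN libraries from 17.5 to 139.7 TPM with a median of 76.6 (log2 fold 4.60, SE 0.36, limma adjusted p = 4.72e-12). The lowest knockout library, replicate 4, thus stood above the highest wild-type library, replicate 5. The main fit shares 1 estimate of the spread of a row over all 4 groups. In a fit of the 16 libraries alone the limma adjusted p of row 1642 was 5.98e-07.

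Table row 5928 had the smallest error among these rises. Its 7 WT_VEH_DEN libraries held 11.0 to 22.5 TPM (median 15.3) and its 9 iRKO_VEH_DEN libraries 106.8 to 214.4 TPM (median 155.0), which gave a log2 fold of 3.13 (SE 0.15, limma adjusted p = 2.00e-16). Table row 14042, the most abundant of the 10 at rank 406, ran from 19.2 to 93.1 TPM in WT_VEH_DEN (median 41.7) and from 203.4 to 505.5 TPM in iRKO_VEH_DEN (median 376.1), which gave a log2 fold of 3.06 (SE 0.18, limma adjusted p = 2.16e-14). In both rows the groups lay far apart, and the knockout libraries were no wider than the wild-type libraries, with log2 SDs of 0.32 against 0.36 in row 5928 and 0.42 against 0.67 in row 14042.

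Other rises were wide among the knockout libraries. Table row 2641 held 5.35 to 10.6 TPM in WT_VEH_DEN (median 7.72) and 28.7 to 283.4 TPM in iRKO_VEH_DEN (median 74.2), where replicates 3, 7 and 8 had 256.3, 283.4 and 198.6 TPM and no other knockout library exceeded 81.5 TPM. Its log2 fold was 3.45 (SE 0.30, limma adjusted p = 3.15e-11), and 2.80 without these 3 libraries. Table row 13548 was the only one of the 10 whose groups overlapped. It held 0.963 to 6.44 TPM in WT_VEH_DEN (median 1.53), 20.6 to 85.6 TPM in 8 of the 9 knockout libraries and 1.48 TPM in replicate 4.

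Several of these rises ended near the level of the control legs and others did not. These comparisons share the knockout libraries, so the levels are given side by side. The 8 control legs averaged 151.8 ± 15.1 TPM (SD) in row 5928 and 364.7 ± 23.2 TPM in row 14042. The 9 knockout libraries averaged 151.7 ± 34.03 TPM and 370.2 ± 101.4 TPM. The 95% intervals of the log2 fold against WT_VEH_CON ran from -0.33 to 0.27 and from -0.39 to 0.33. Row 2641 stayed below control, at 125.5 ± 94.2 TPM against 307.8 ± 15.96 TPM, and row 1642 stood above it, at 74.6 ± 42.0 TPM against 23.9 ± 7.26 TPM (limma adjusted p = 1.73e-05 and 0.00105). Against WT_VEH_CON, 3 of the 10 rows were called higher and 2 lower, where that comparison called 45.4% of all rows tested (34.3% higher, 11.1% lower). With NVS-HD1 the means of the 10 rows were 13.3 to 309.8 TPM. With the title number in the fit, 4 of the 10 rises were still called, with log2 folds of 1.45 to 3.74 over all 10.

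**Figure D2:**
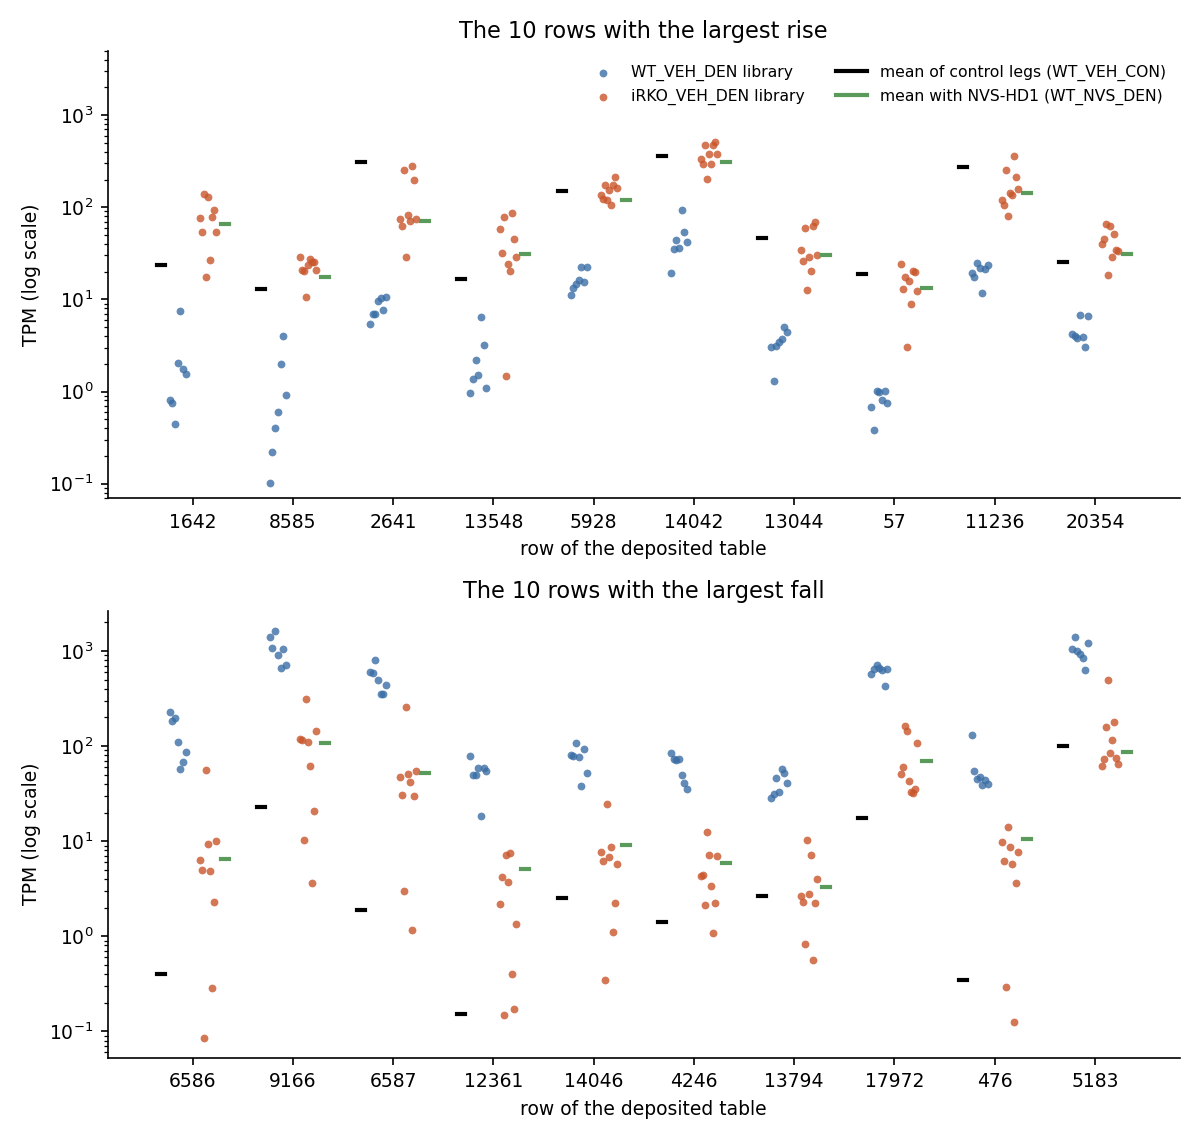
TPM (log scale) of the 10 rows with the largest rise and the 10 with the largest fall in iRKO_VEH_DEN against WT_VEH_DEN, 1 blue point per WT_VEH_DEN library (7) and 1 orange point per iRKO_VEH_DEN library (9). The black and green dashes are the means of 8 control legs and of 10 denervated legs under NVS-HD1. The groups overlap in row 13548 only.

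The 10 largest falls by log2 fold lay between -4.36 and -3.11. Their means fell from between 41.4 and 1065 TPM in WT_VEH_DEN to between 3 and 145.0 TPM in iRKO_VEH_DEN, 6.98-fold to 17.6-fold lower. In all 10 rows every knockout library lay below every wild-type library. Table row 6586 fell most. It held 57.3 to 229.9 TPM in WT_VEH_DEN (median 111.4) and 0.0862 to 56.4 TPM in iRKO_VEH_DEN (median 5.01), which gave a log2 fold of -4.36 (SE 0.47, limma adjusted p = 3.51e-09). The groups came within 1 TPM of each other, through replicate 4 of the knockout, which held 56.4 TPM where the next highest held 10.1 TPM. In a fit of the 16 libraries alone the limma adjusted p of this row was 4.08e-05.

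Table row 6587, the neighbour of that row in the table, also lay in this group. It ran from 351.1 to 803.6 TPM in WT_VEH_DEN (median 501.5) and from 1.15 to 256.1 TPM in iRKO_VEH_DEN (median 42.2). Table row 9166, the most abundant in WT_VEH_DEN of the 10, held 661.8 to 1626 TPM there (median 1061) and 3.67 to 314.8 TPM in the knockout (median 110.9), which gave a log2 fold of -4.19 (SE 0.55, limma adjusted p = 1.35e-07). With the 16 libraries alone in the fit, row 9166 had a limma adjusted p of 0.000133. In rows 6587 and 9166 replicate 4 was the highest knockout library and replicate 7 the lowest. Table row 17972 was among the tighter rows in wild-type muscle, with 426.3 to 715.4 TPM (median 643.4), and had 32.3 to 162.0 TPM in the knockout (median 51.3). In this row replicate 3, low in rows 6586, 6587 and 9166, was the highest of the knockout libraries.

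The fallen rows differed in how far they stood from the control legs. In the 9 knockout libraries, table row 5183 averaged 145.0 ± 136.9 TPM (SD), against 101.4 ± 6.01 TPM in the 8 control legs. Replicate 4 held 492.3 TPM, and the knockout median of 84.3 TPM lay below the lowest control leg, at 95.2 TPM. Row 13794 averaged 3.64 ± 3.17 TPM in the knockout libraries against 2.63 ± 1.15 TPM in the control legs. Row 17972 averaged above control, at 74.1 ± 50.2 TPM against 17.3 ± 9.56 TPM (limma adjusted p = 3.95e-06). So did row 6587, at 57.5 ± 77.0 TPM against 1.88 ± 0.707 TPM (limma adjusted p = 3.82e-06). Some knockout libraries lay within the control range. In row 17972 replicates 6, 7 and 8 held 32.9, 32.3 and 35.4 TPM, where control legs ran from 8.89 to 38.8 TPM. In row 6587 replicates 3 and 7 held 3.01 and 1.15 TPM, where control legs ran from 0.774 to 3.05 TPM. Of the 10 rows, 7 were called above WT_VEH_CON and 0 below, where that comparison called 34.3% of all rows tested higher and 11.1% lower. The other 3 were not called in that comparison, with adjusted p of 0.0860, 0.725 and 0.667 for rows 14046, 13794 and 5183 by limma. With NVS-HD1 the means of the 10 rows were 3.30 to 108.8 TPM. Without knockout replicates 3, 7 and 8 all 10 were called, but at log2 folds of -3.45 to -2.51, and 6 of them moved by over 1.5-fold. With the title number in the fit, 0 of the 10 were called by limma, with log2 folds of -3.17 to -1.88.

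Rows that crossed 1 TPM completely were few. In 8 rows all 9 knockout libraries held at least 1 TPM and all 7 wild-type libraries less, and in 6 rows the reverse was found. Table row 57 came close to the first kind, with 0.385 to 1.02 TPM in WT_VEH_DEN (median 0.815) and 3.04 to 24.3 TPM in iRKO_VEH_DEN (median 15.99). Control legs held 18.7 ± 6.48 TPM (SD, n = 8) in this row.

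In absolute terms the largest gains fell to the most abundant rows of the table. The 5 largest gains of TPM were in rows ranked 2 to 6 in mean TPM, which rose only 1.20-fold to 1.79-fold but gained 41576 TPM together. That is 28.4% of the 146281 TPM gained by all rows with a higher mean, which equals the TPM lost by the others because each library adds up to the same total. Table row 2635 gained most. It held 9382 to 24207 TPM in WT_VEH_DEN (median 16090) and 21333 to 36464 TPM in iRKO_VEH_DEN (median 28976), which gave a log2 fold of 0.87 (SE 0.12, limma adjusted p = 5.46e-07). In 8 of 9 knockout libraries the row lay above all wild-type libraries.

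Table row 15840 followed, with 18139 to 27552 TPM in WT_VEH_DEN (median 20043) and 25740 to 38070 TPM in iRKO_VEH_DEN (median 30560). The other 3 rows overlapped more between the groups. Their log2 folds were 0.37 for row 10778, 0.35 for row 16942 and 0.27 for row 17180, and median-of-ratios scaling gave 0.43, 0.41 and 0.32, all called (limma adjusted p 0.0093 to 0.0368). Quantile normalization gave -0.14, -0.07 and -0.06, of which only the first was called, but it sets the highest values of every library equal and so removes a joint rise of the most abundant rows by construction. Without a filter on low values, row 17180 had the same log2 fold of 0.27 and was not called (limma adjusted p = 0.110). The level in control legs was 27888 ± 2422 TPM (SD, n = 8) in row 2635 and 38808 ± 3394 TPM in row 15840, against 29275 ± 4959 TPM and 32092 ± 3978 TPM in the 9 knockout libraries. With the title number in the fit none of the 5 rows was called (limma adjusted p 0.126 to 0.227), at log2 folds of 0.40 to 0.85 against 0.27 to 0.87 without it.

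The 5 largest losses of TPM were in rows of rank 34 to 71, and they were larger as folds. They dropped by 14546 TPM together, 9.94% of all TPM lost, and in all 5 rows the groups did not overlap. Table row 14045 went from 4198 to 6777 TPM in WT_VEH_DEN (median 5739) to 506.8 to 1873 TPM in iRKO_VEH_DEN (median 837.7), which gave a log2 fold of -2.76 (SE 0.18, limma adjusted p = 2.06e-13). Its control legs held 802.8 ± 80.5 TPM (SD, n = 8) against 924.1 ± 438.2 TPM in the 9 knockout libraries. This row alone of the 5 was still called with the title number in the fit.

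Table row 393 was the steadiest of these rows. It held 4030 to 4946 TPM in WT_VEH_DEN (median 4121) and 1787 to 2514 TPM in iRKO_VEH_DEN (median 2284), which gave a log2 fold of -0.93 (SE 0.09, limma adjusted p = 1.29e-10). In control legs it held 950.6 ± 70.8 TPM (SD, n = 8), so the knockout libraries lay clear of both groups. Rows 8154 and 13020 were far more variable in the knockout, at 246.4 to 1814 TPM and 153.9 to 1698 TPM against 2928 to 3891 TPM and 2519 to 3346 TPM in WT_VEH_DEN. In both, replicates 3, 7 and 8 were the lowest libraries, and without them the log2 folds changed from -2.31 to -1.74 and from -2.14 to -1.39.

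The make-up of the libraries moved with these rows. The 20 most abundant rows together held 28.5% ± 2.65 (SD, n = 7) of TPM in WT_VEH_DEN and 36.7% ± 3.67 (SD, n = 9) in iRKO_VEH_DEN, 8.23 points more (exact two-sided permutation test, p = 0.00035, adjusted over 4 measures 0.0014). In the deposited TPM, and likewise with median-of-ratios scaling, 14 of the 20 rose, 1 fell and 5 were not called, against 15.3% and 25.9% of all rows tested as deposited. After quantile normalization, which makes the highest values of all libraries equal, 6 rose, 5 fell and 9 were not called. With the highest values made equal, this scaling cannot show a joint rise of the most abundant rows. How far that accounts for these counts was not tested. The number of rows that together hold 50% of all TPM was lower in the knockout. It was 106 to 217 in WT_VEH_DEN (median 177) and 52 to 146 in iRKO_VEH_DEN (median 113), a difference of -66.9 rows (SE 18.3, exact two-sided permutation test, p = 0.0035, adjusted over 4 measures 0.00699). Control legs needed 34 to 97 rows (median 78.0). The number of rows that reached 1 TPM was 12323 ± 199 (SD, n = 7) in WT_VEH_DEN and 12490 ± 300 (SD, n = 9) in iRKO_VEH_DEN, a difference within the spread (exact permutation adjusted p = 0.223).

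Measured as the share of TPM that would have to move to turn 1 library into the mean of a group, the knockout libraries lay 9.91% to 21.7% from the mean of WT_VEH_DEN and 5.15% to 10.6% from the mean of the other knockout libraries. Wild-type libraries lay 12.0% to 18.1% from the knockout mean and 4.05% to 9.49% from the mean of the other wild-type libraries. Knockout replicate 4 was nearer to the wild-type mean (9.91%) than to that of its own group (10.6%). It was the only 1 of the 16 libraries placed so.

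The direction of change differed between abundance classes, and in 3 of the 5 classes the prevailing direction was not the same under all 4 scalings. As deposited, rows with a mean of 10 to 100 TPM over the 16 libraries fell far more often than they rose, 2174 against 857 of 5987, and so did those of 100 to 1000 TPM, 577 against 211 of 1276. Rows under 2 TPM rose more often, 241 against 96 of 1750. Median-of-ratios scaling kept the prevailing direction in every class, with 1901 falls and 1064 rises at 10 to 100 TPM, 499 and 233 at 100 to 1000 TPM, and 91 and 321 under 2 TPM. Quantile normalization evened out these classes, with 1510 falls and 1332 rises at 10 to 100 TPM, 397 and 363 at 100 to 1000 TPM, and 160 and 154 under 2 TPM. Rescaling without the 20 most abundant rows turned the class of 10 to 100 TPM round, with 1711 rises and 1260 falls. Over all rows, the share of calls that were rises was 37.1% in the deposited TPM. It was 45.8% with median-of-ratios scaling, 47.5% under quantile normalization and 65.5% without the 20 most abundant rows. The last of these shifted the median log2 fold of all rows from -0.03 to 0.12. Falls outnumbered rises over all rows under the first 3 of these 4 scalings and not under the last.

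**Figure D3:**
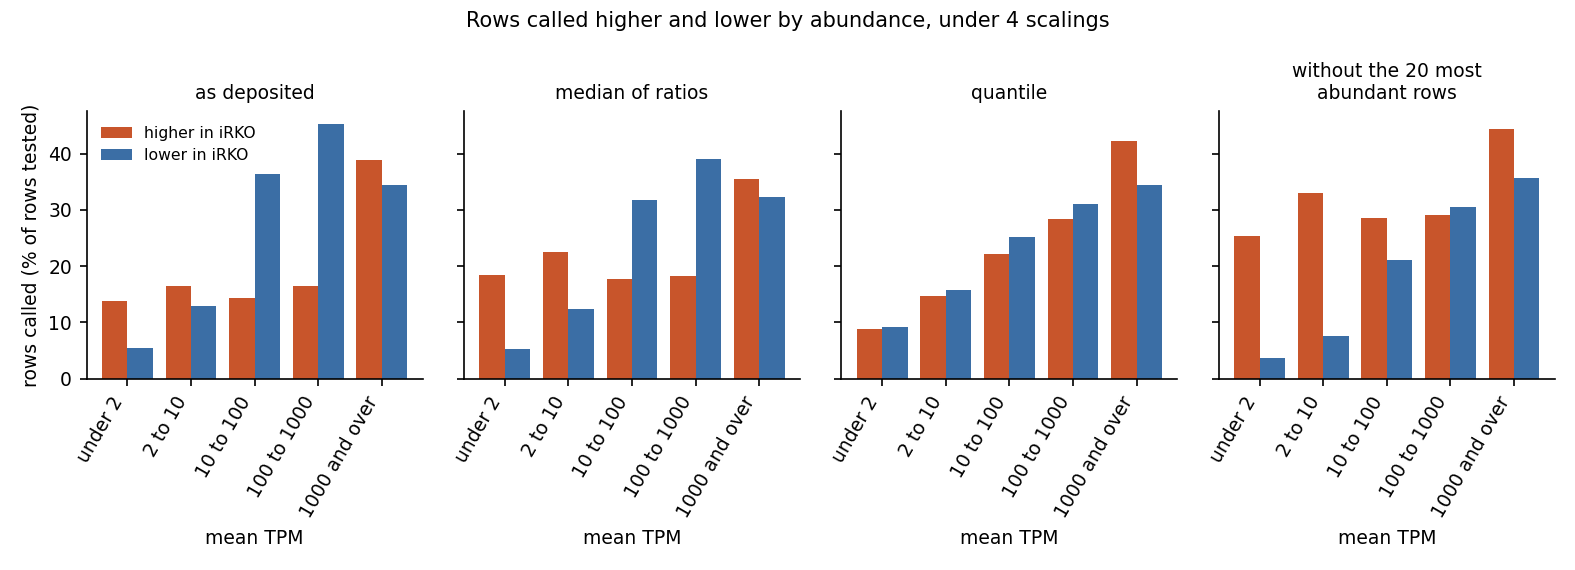
Share of the rows tested that were called higher (orange) or lower (blue) in iRKO_VEH_DEN, in % of the rows of each class of mean TPM, under 4 scalings of the same table. The excess of falls at 10 to 100 TPM, 36.3% against 14.3% as deposited, is 25.2% against 22.2% after quantile normalization and turns round to 21.0% against 28.6% without the 20 most abundant rows.

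Calls became more frequent with abundance under all 4 scalings. As deposited, 19.3% of rows under 2 TPM, 29.4% of those at 2 to 10 TPM, 50.6% at 10 to 100 TPM, 61.8% at 100 to 1000 TPM and 73.3% of the 90 rows of 1000 TPM and over were called. The median size of the log2 fold went from 0.19 in the lowest class to 0.43 in the highest, while the median SE went from 0.15 to 0.09. On the log2(TPM + 1) scale the changes of low rows are understated.

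The knockout libraries did not all carry the change to the same extent. For each library, the rows changed at least 2-fold were picked from a fit without it, and its distance from the mean of the wild-type libraries along those folds was expressed in % of the change in the remaining libraries. Wild-type libraries lay between -12.0% and 17.0%, and knockout libraries between 47.6% and 142.6%, with a mean of 98.5% ± 29.9 (SD, n = 9). Replicate 4 had the smallest value, 47.6%. Replicates 1, 2, 5, 6 and 9 lay between 84.4% and 91.4%. Replicates 3, 7 and 8 had 133.5%, 142.6% and 125.8%. The order was alike for rises and falls, with 49.9% and 45.9% in replicate 4 and with 121.3% to 129.6% and 129.6% to 154.1% in replicates 3, 7 and 8.

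**Figure D4:**
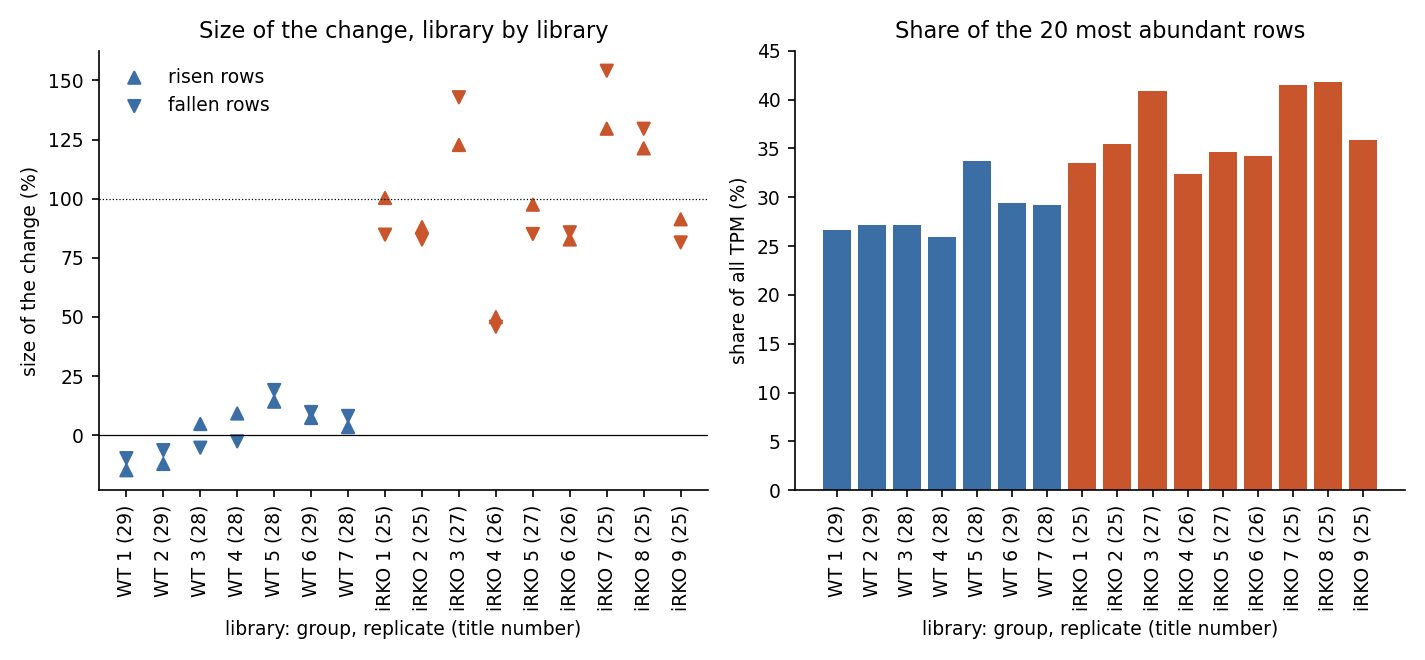
Left, the size of the change in each library, in % of the change in the remaining libraries, for risen rows (upward triangles) and fallen rows (downward triangles). Right, the share of all TPM held by the 20 most abundant rows. Blue is WT_VEH_DEN, orange is iRKO_VEH_DEN, and the title number stands in brackets. Replicate 4 lies lowest among the knockout libraries on both measures, and replicates 3, 7 and 8 highest.

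Single libraries were extreme in a large share of the rows that changed at least 2-fold. These rows were picked on the same libraries and are not independent of each other, and the share over all rows tested is not given here. Among the 311 rows that fell at least 2-fold, replicate 4 was the highest knockout library in 223 and replicate 7 the lowest in 166. Among the 243 that rose at least 2-fold, replicate 4 was the lowest in 182, and replicates 7, 8 and 3 were the highest in 72, 65 and 40. In 94.5% of the rows picked without it, replicate 4 still differed from the wild-type mean in the direction of the other knockout libraries, against 98.5% to 99.8% for the other 8.

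Among the knockout libraries the size of the change varied within each title number. Replicates 1, 2, 7, 8 and 9 have number 25 and ran from 85.1% in replicate 2 to 142.6% in replicate 7. Number 27 had 133.5% in replicate 3 and 90.4% in replicate 5. Number 26 had the lowest values of the knockout libraries, 47.6% in replicate 4 and 84.4% in replicate 6. Each number has only 2 to 5 knockout libraries, and a link between the number and the size was not tested. The share of TPM held by the 20 most abundant rows set the same libraries apart. It was 32.4% in replicate 4, 33.5% to 35.9% in replicates 1, 2, 5, 6 and 9, and 40.9% to 41.8% in replicates 3, 7 and 8. Within these sets it did not follow the size of the change. Replicate 1 had a size of 91.4% and a share of 33.5%, and replicate 9 a size of 85.8% and a share of 35.9%. After median-of-ratios scaling the sizes were 47.5% in replicate 4 and 125.9% to 142.5% in replicates 3, 7 and 8.

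Rows tended to vary more among the knockout libraries. The median log2 SD of a row was 0.24 in iRKO_VEH_DEN and 0.20 in WT_VEH_DEN, and 65.4% of the rows tested had the larger SD in the knockout. Among the rows that fell at least 2-fold the medians were 0.47 and 0.25. Of these rows 89.7% had the larger SD in the knockout, though they were also at lower TPM there. Among those that rose at least 2-fold, which were at higher TPM in the knockout, the medians were 0.44 and 0.28. Here 77.0% had the larger SD in the knockout. Per library, the root mean square distance from the mean of the other libraries of the group was 0.35 ± 0.06 (SD, n = 9) in the knockout and 0.29 ± 0.07 (SD, n = 7) in the wild type on the log2 scale (exact two-sided permutation p = 0.131, adjusted over 4 measures 0.174). Wild-type replicate 5 was the farthest of its group at 0.43, and without it the exact permutation p was 0.0178 before adjustment. In the knockout, 53.1% of the variance among the 9 libraries lay on 1 component, on which replicates 3, 7 and 8 had scores of 29.2 to 39.4 and the other 6 scores of -27.9 to -10.3.

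The 5 rows with the largest SD among knockout libraries show this pattern row by row. They were picked for their spread in these same libraries, so they illustrate the pattern and do not test it. Table row 16383, rank 155, held 809.1 to 1731 TPM in WT_VEH_DEN (median 1121). In iRKO_VEH_DEN replicates 7, 3 and 8 held 16.7, 32.4 and 171.7 TPM and the other 6 libraries 596.7 to 1439 TPM, which in part overlapped the wild type. The log2 fold was -1.89 (SE 0.62, limma adjusted p = 0.0135), and -0.47 without these 3 libraries (limma adjusted p = 0.216). In a fit of the 16 libraries alone the log2 fold was the same, -1.89, and the row was not called (limma adjusted p = 0.0732).

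Table row 18687 was alike, with 111.4 to 303.8 TPM in WT_VEH_DEN (median 184.7), 5.15, 6.68 and 45.8 TPM in knockout replicates 3, 7 and 8 and 471.0 TPM in replicate 4, above every wild-type library. Its log2 fold of -1.50 (SE 0.60, limma adjusted p = 0.0446) was not called in 10 of the 16 fits that leave out 1 library (wild-type replicates 1, 2, 3, 4 and 7 and knockout replicates 1, 2, 3, 7 and 8, limma adjusted p 0.0522 to 0.114), and was -0.33 without replicates 3, 7 and 8. Table row 20929 was not called, with 1.12 to 34.6 TPM in WT_VEH_DEN (median 6.42) and 0 to 31.3 TPM in iRKO_VEH_DEN (median 17.2). In it replicate 3 was listed at 0, replicates 8 and 7 held 0.974 and 1.73 TPM, and the other 6 libraries held at least 8.999 TPM. Rows 6587 and 9166, among the largest falls, complete the 5. Both were called without the 3 libraries, at log2 folds of -3.04 and -2.98 in place of -4.12 and -4.19.

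**Figure D5:**
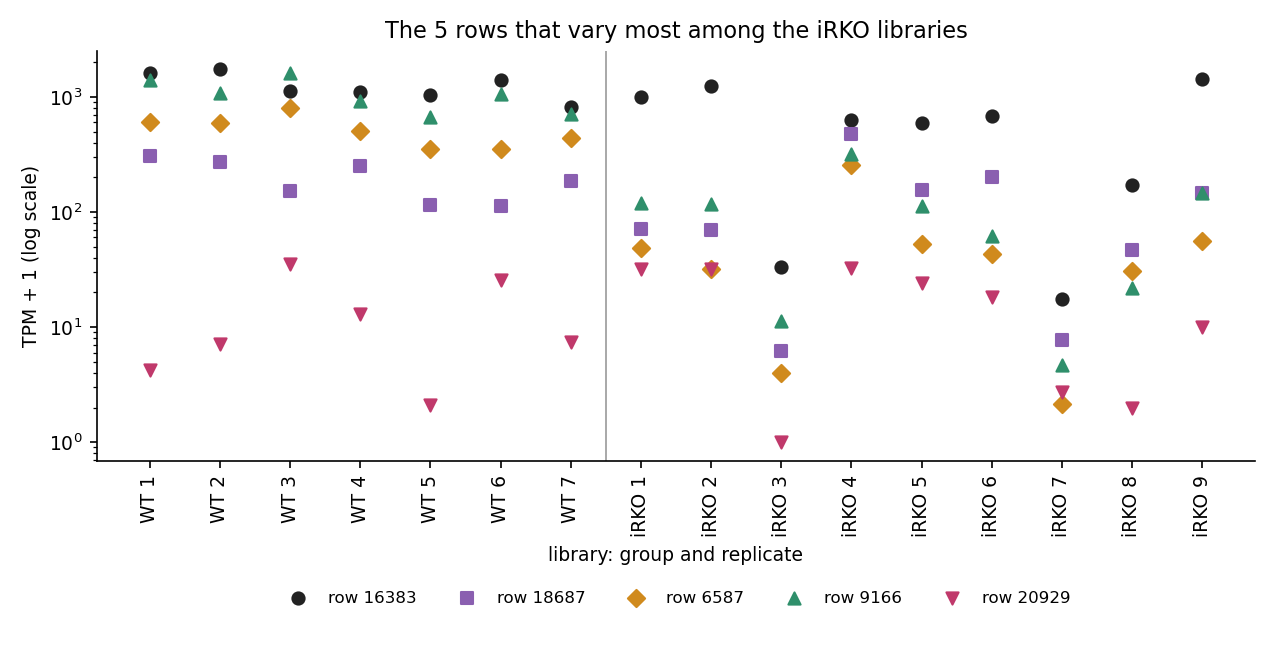
TPM + 1 (log scale) in each of the 7 WT_VEH_DEN and 9 iRKO_VEH_DEN libraries for the 5 rows with the largest log2 SD among the knockout libraries, 1 symbol per row. In rows 16383, 18687 and 20929 knockout replicates 3, 7 and 8 lie below the other 6 knockout libraries.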

How the data were processed

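Stranded, polyadenylated RNA libraries of snap-frozen gastrocnemius were sequenced, as the labels' protocols state. The deposited values are TPM, in 1 table of 34 libraries made by the authors, and each library sums to the same total. STAR 2.4.5a and the mm10 build are named, per the submitters' processing notes. For the counting tool and the annotation, the sources used here name none. Depth cannot be read from TPM, so no counting interval is given.

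All 4 groups entered 1 fit of log2(TPM + 1) in limma 3.58.1 (R 4.3.3) with an empirical Bayes trend, two-sided, with Benjamini-Hochberg adjustment over 13108 rows at 0.05. The fit was tested on simulated data. Measures with 1 value per library were compared by exact permutation over all 11440 splits (Python 3.11.15, numpy 2.4.6). Replicates were numbered in accession order. Nothing in the labels says that each library is a separate mouse, and p-values then measure the spread between libraries, which may be technical.

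Named rows were the 10 largest rises and 10 largest falls by log2 fold among called rows whose higher group averaged 2 TPM or more, the 5 largest gains and 5 largest losses of mean TPM among called rows, and the 5 rows of at least 2 TPM in iRKO_VEH_DEN with the largest log2 SD there. The comparison, these rules and the lists were chosen with earlier results of these data known. Alternatives were a pseudocount of 0.1, other filters, scalings, samples and weights, the title number, and leaving out libraries. The size of the change after median-of-ratios scaling was added after the data had been seen.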

Additional observations from a re-analysis of the deposited data

Results flagged for a closer look

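Each measure per library and each named row (on the log2 scale) was searched in both groups for a library standing apart by Dixon's criterion. In 8 of 76 cases it was met, where chance gives about 1 in 20, or 3.8, for independent cases. The named rows were picked on these same libraries and are not independent, so 3.8 is only a rough guide here. In table row 8585 knockout replicate 4 held 10.53 TPM and the other knockout libraries 20.3 to 28.7 TPM. In row 13548 the same library held 1.48 TPM and the others 20.6 to 85.6 TPM. The remaining 6 were wild-type libraries. Replicate 5 was high in row 1642, at 7.55 TPM against 0.448 to 2.02 TPM, and low in row 12361, at 18.4 TPM against 49.2 to 79.5 TPM. Replicate 1 was high in row 476, at 130.4 TPM against 39.0 to 54.3 TPM, and in row 393, at 4946 TPM against 4030 to 4376 TPM. Replicate 2 was low in row 13044, at 1.31 TPM against 3.01 to 5.07 TPM. Replicate 6 was low in row 17972, at 426.3 TPM against 576.3 to 715.4 TPM.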

How the results depend on the processing

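The number of rows called ranged from 4955 to 5560 when 1 library was left out, with 1766 to 2162 higher, 3100 to 3602 lower and 499 to 631 of at least 2-fold. Rows without overlap ranged from 1646 to 2138, against 1633 with all libraries. This count can only stay or rise when a library is left out. With the title number as a term the counts were 161, 71 higher, 90 lower and 100 of at least 2-fold, and 159 of the 161 were among the 5398 rows, in the same direction. These counts hang on the 1 NVS-HD1 library of number 28. Rescaling without the 20 most abundant rows gave 3881 higher and 2043 lower, and WT_VEH_DEN of number 28 alone gave 1301 higher. The causes were not tested. The difference in rows holding 50% of TPM was -77.8 to -59.3 without 1 library, and for 90% of TPM it was -129 (exact permutation p = 0.370). The difference in distance from the group was 0.035 to 0.079 without 1 library, and the share of the 20 most abundant rows differed by 7.59 to 9.10 points. The difference in rows reaching 1 TPM was 117.2 to 231.3. The 33 named rows gave 985 values under 30 alternatives, as the 5 rows of the largest gains are absent from 1 of them, and 922 values kept their direction and side of the threshold, 50 kept the direction but were no longer called, 27 of these under the title number, and 13 reversed. Row 20929, not called, reversed to -0.046 with knockout libraries of number 25 alone, to -0.24 with a pseudocount of 0.1, to -3.34 with the title number in the fit and, without 1 library, ranged from -0.27 to 0.50. Quantile normalization reversed rows 10778, 16942 and 17180 to -0.14, -0.070 and -0.059. No paired analysis was possible because the groups compared differ in genotype, so no mouse is in both, and the labels give no other pairing. The labels do not tie libraries to mice.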

Other observations

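The order of the table carried some information on the change, whatever its symbols. Across 8979 pairs of neighbouring rows that were both tested, the log2 folds for the knockout had a Pearson correlation of 0.14. For 8636 pairs of rows that stood 2 apart it was 0.06, and for 8112 pairs that stood 10 apart it was 0.0022. Rows of 1 table share libraries and are not independent, and no p is given. Rows 6586 and 6587, both among the largest falls, are neighbours. So are row 14045, the largest loss of TPM, and row 14046, which averaged 75.6 ± 23.7 TPM (SD) in the 7 wild-type libraries and 7.04 ± 7.18 TPM in the 9 knockout libraries, while row 14042, close to both, rose. No gene is assigned to any of these rows.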
